A study of Arabidopsis thaliana with 10 samples.

Results

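The comparison sets hda9 seedlings, which carry the insertion SALK_007123 in the gene of a histone deacetylase, beside pwr seedlings, which carry SALK_071811C in the gene of its SANT-domain partner. It asks what separates loss of the enzyme from loss of the partner. It was made on the hda9 and pwr columns of the deposited expression table, which cover 4 of the 10 libraries (2 per genotype). The context came from wild-type plants of ecotype Columbia-0 (Col), from hos15 (hos15-2, SALK_064435) and from the double mutant with both SALK_007123 and SALK_064435. All were Arabidopsis thaliana whole seedlings grown for 7 days on 1/2 MS medium with 0.8% agar at 23 °C, in 16 h of light and 8 h of dark, and taken at ZT 12, which is 12 h after lights-on. Each mutant is represented by 1 insertion line. The authors combined the 2 libraries of a genotype into 1 FPKM value per gene (fragments counted per transcript length and per mapped fragments). No error, test or p-value can therefore be given, and every difference here compares 1 value per genotype with no replicate check.

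HDA9 removes acetyl groups from histone tails, a mark found at active genes. POWERDRESS (PWR) has a SANT domain and binds HDA9, and HOS15 is a WD40-repeat protein reported in the same complex. In Arabidopsis such complexes are known for repressing genes of flowering, ageing and stress responses, and loss of either protein is known to raise histone acetylation.

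Of 33297 rows in the table, 18912 reached 1 FPKM in 2 or more genotypes, and their values were set side by side as log2(FPKM + 1), a scale that understates folds of weakly expressed genes. A row was called higher or lower when hda9 and pwr differed by at least 1 on that scale (2-fold). By this rule 103 rows (0.545% of those compared) were higher in hda9 than in pwr and 72 rows (0.381%) were lower, 175 in all (0.925%). The columns were close elsewhere: 93.9% of rows lay within 0.5 of each other, the median difference was 0.06 and the SD over rows was 0.33. The split leaned to higher calls but depended on the scale of the columns, with 80 higher and 79 lower after quantile normalization. It depended on the size rule too, with 25 higher and 38 lower at a 3-fold rule. The same rule called 68 rows higher in hda9 than in hos15 (0.36%) and 72 lower (0.381%), and 162 higher in hos15 than in pwr (0.857%) and 65 lower (0.344%). These 3 comparisons share columns.

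**Figure D1:**
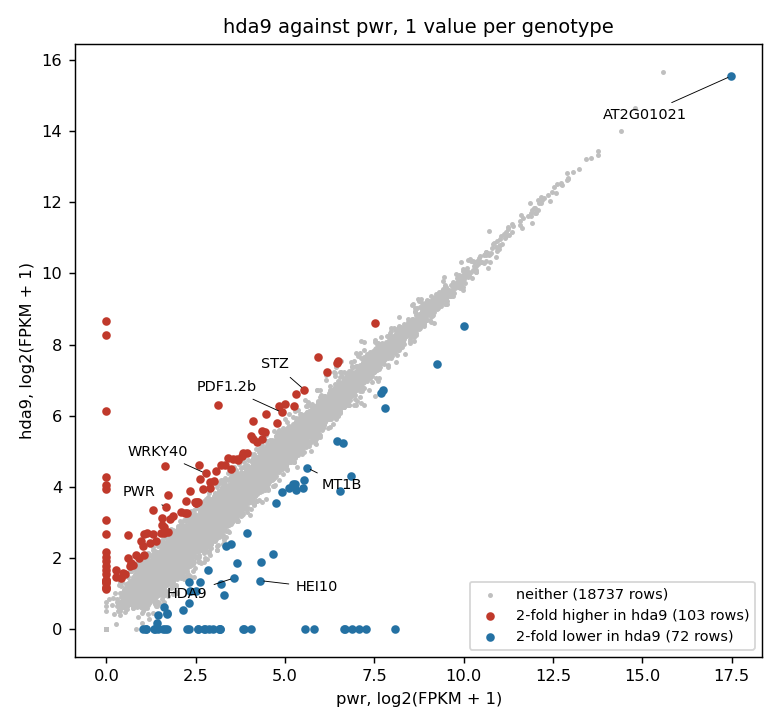
Each point is 1 of the 18912 rows, with its pwr value on the x axis and its hda9 value on the y axis, both as log2(FPKM + 1). The 103 rows 2-fold higher in hda9 lie above the diagonal band and the 72 lower rows below it, and the rows along either axis are listed at 0 in 1 of the columns.

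The disrupted genes had the low values their labels call for. HDA9 was 1.70 FPKM in hda9 and 10.9 in pwr, against 7.79 for Col, 10.7 for hos15 and 1.76 for the double mutant, a difference of -2.14 on the log2 scale. PWR was 9.76 FPKM in hda9 and 2.18 in pwr, against 8.38 for Col, 12.1 for hos15 and 10.2 for the double mutant, a difference of 1.76. HDA9 was thus low in both genotypes that carry the hda9 insertion, and PWR was low in pwr alone. PWR overlaps 1 annotated gene on the opposite strand, and use of the strand in counting is not stated. HOS15 differed by 0.37, at 4.37 FPKM in hda9 and 3.17 in pwr. Both values were below the 16.2 of Col, and hos15 had 2.16 and the double mutant 1.89. The HOS15 transcript is rich in purines (57.9% A and G), a feature that moved with the comparison across all genes and is described further on. Of 13 other histone deacetylase genes compared, none was called, and their median difference was 0.07. Among 17 genes reported elsewhere as targets of HDA9, PWR or HOS15, such as FLC, SOC1 and YUC8, none was called either. Of the 17, 8 were above 0 and 9 below, beside 61.7% of all rows above 0, and the median was -0.01. FLC, the floral repressor, was 3.93 FPKM in hda9 and 5.04 in pwr.

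The called rows fell into unlike classes. Among the 103 higher rows 84 were protein-coding genes, 6 were microRNA precursors, 4 small nucleolar RNAs and 2 tRNAs. Among the 72 lower rows 43 were protein-coding, 10 were small nucleolar RNAs, 5 microRNA precursors, 4 tRNAs and 1 a ribosomal RNA. Rows under 300 nt made up 29 of the higher and 39 of the lower calls, although only 174 of the 18912 rows were that short. A value of 0 was listed for pwr in 22 of the higher rows and for hda9 in 31 of the lower rows, and 79 of all rows had such a 0. A listed 0 may be a failed estimate, so no ratio of FPKM values is given against it. That left 63 higher and 16 lower protein-coding genes of at least 300 nt with values above 0 in both columns (of 18058 such genes), and most named genes come from these 79.

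Of 32 genes that respond early to wounding, touch and pathogen signals, 5 were called higher in hda9 (0.545% of all rows were) and none lower (0.381%), and 4 were called after sequence adjustment. The other 27 did not pass the rule. Values were above 0 for 30 of the 32, beside 61.7% of all rows, and the median was 0.58 beside 0.06 for all rows. The sequence adjustment, described further on, removes the part of a difference that goes with transcript composition. The 5 were WRKY40, WRKY33, WRKY18, ERF105 and STZ. WRKY18 was named after its value was seen. The list was drawn up with earlier results of these data known, so its direction is a description.

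WRKY40 encodes a transcription factor that represses parts of the defence response. It was 19.7 FPKM in hda9 and 5.87 in pwr, against 5.14 for Col, 16.2 for hos15 and 2.83 for the double mutant, a difference of 1.59. Here hda9 and hos15 stood high and the other 3 columns low. ERF105, an ethylene response factor induced by cold and stress, was 23.6 FPKM in hda9 and 8.20 in pwr, beside 3.86 for Col, 21.8 for hos15 and 4.52 for the double mutant, a difference of 1.42. ERF13, another ethylene response factor, was 5.43 FPKM in hda9 and 1.19 in pwr, against 0.356 for Col, 3.47 for hos15 and 1.15 for the double mutant, and differed by 1.55. Both ERF genes had the order hda9, hos15, pwr, double mutant and Col from high to low.

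STZ (ZAT10), a zinc-finger repressor induced by salt, cold and drought, was 105 FPKM in hda9 and 45.5 in pwr, against 12.8 for Col, 70.9 for hos15 and 28.2 for the double mutant. Its difference was 1.19, and both mutants were above Col. WRKY33, a regulator of camalexin synthesis and defence against necrotrophic fungi, was 20.7 FPKM in hda9 and 7.46 in pwr, with 17.6 for Col, 23.0 for hos15 and 6.38 for the double mutant. In WRKY33 it was pwr and the double mutant that stood apart, both below Col, and the difference was 1.36. WRKY18, a close relative of WRKY40, was 21.7 FPKM in hda9 and 10.3 in pwr, beside 16.6 for Col, 26.0 for hos15 and 5.52 for the double mutant, just inside the rule at 1.01 and short of it after sequence adjustment at 0.93. WRKY40 and ERF105 each overlap 1 annotated antisense gene and WRKY33 overlaps 2.

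Other members of the list were just short of the rule. The calmodulin-like gene TCH3 was 275 FPKM in hda9 and 139 in pwr (0.98), and the wall-modifying enzyme gene TCH4 was 270 and 148 (0.86). The kinase gene MPK3 was 150 and 82.2 (0.86). The members with values below 0 were TCH2, at 128 FPKM in hda9 and 138 in pwr (-0.10), and AZF1, at 2.85 and 2.95 (-0.03). Of the 32, 20 were at least 2-fold above Col in hda9 (1.99% of all rows were), 14 in hos15 (232 of the 18912 rows) and 9 in pwr (1.94%). In hda9 and in hos15 alike, 30 of the 32 were above Col by any size. The hda9 column held the highest of the 5 values for 25 of the 32 genes (2844 of the 18912 rows), and the lowest was in Col for 15 and in the double mutant for 14.

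**Figure D2:**
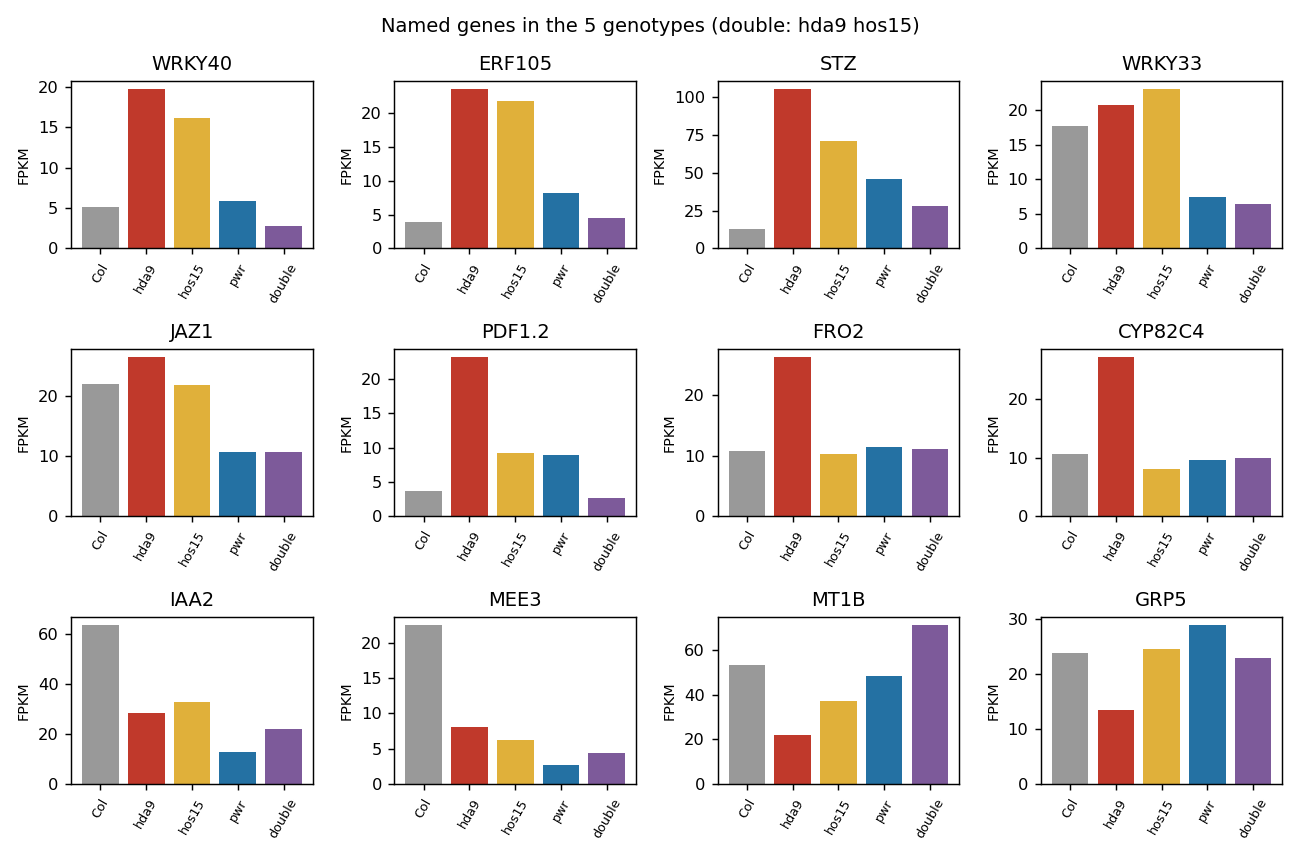
Bars give the FPKM of 12 named genes, from 0, in the 5 genotypes, with 1 value per genotype and no error. In WRKY40 and ERF105 hda9 and hos15 stand above the other columns, in FRO2 and CYP82C4 hda9 stands alone, in IAA2 and MEE3 Col is highest and pwr lowest, and in MT1B and GRP5 hda9 is lowest.

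Of 23 jasmonate genes compared, JAZ1 and VSP1 were called higher in hda9 (0.545% of all rows were) and none lower (0.381%). In the whole list 19 were above 0 (61.7% of all rows were), with a median of 0.44. All 9 JAZ genes compared, which encode repressors of the jasmonate response, were above 0, with values from 0.18 to 1.24. JAZ1 was 26.5 FPKM in hda9 and 10.6 in pwr, beside 22.1 for Col, 21.9 for hos15 and 10.7 for the double mutant. Here hda9 was near Col and hos15, and pwr was near the double mutant. VSP1, a vegetative storage acid phosphatase of the jasmonate response, was 5.47 FPKM in hda9 and 2.04 in pwr, against 4.16 for Col, 4.59 for hos15 and 3.11 for the double mutant (1.09, and 0.98 after quantile normalization). Of the synthesis genes, AOS went the other way without passing the rule, at 222 FPKM in hda9 and 258 in pwr (-0.21).

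Of 10 defensin genes compared, which encode small antifungal peptides, 3 close copies were called higher (0.545% of all rows were) and none lower (0.381%). Only 5 were above 0, beside 61.7% of all rows, and the median was 0.21. PDF1.2, the usual marker of joint ethylene and jasmonate signalling, was 23.3 FPKM in hda9 and 8.93 in pwr, against 3.63 for Col, 9.15 for hos15 and 2.72 for the double mutant, a difference of 1.29. PDF1.2b was 67.2 FPKM in hda9 and 29.2 in pwr, and PDF1.2c was 14.6 and 6.43 (0.96 after quantile normalization). All 3 had their highest value in hda9, above Col by more than their distance from pwr. Their transcripts are 87.4% to 89.6% identical in RefSeq, so reads shared between copies could move counts from one to another. PDF1.3, 86.5% to 89.6% identical to them, was not called, at 52.8 FPKM in hda9 and 36.8 in pwr (0.51). PDF1.5 was farthest the other way, at 14.5 and 20.5 FPKM (-0.47). PDF2.1, PDF2.2 and PDF2.3 had differences of -0.29, -0.09 and -0.18.

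Upstream sequence of 3 of these genes is shown because WRKY factors bind the W-box and ethylene response factors bind the GCC-box, and genes of both families were among those called. The windows are the 250 bases before the annotated gene start in RefSeq TAIR10.1, found by locus code, and none of the 3 overlaps another annotated gene. These windows were chosen after their matches had been seen. The windows of WRKY40 and ERF13, also searched, held 1 W-box core each and no GCC-box. Capitals mark matches, on either strand, to the W-box core TTGAC, to the GCC-box with the letters GCCGCC or to the G-box with the letters CACGTG. WRKY33 lies at chr2:16107985-16108234, plus strand, STZ at chr1:9649324-9649573, minus strand and PDF1.2 at chr5:17907639-17907888, minus strand.
WRKY33: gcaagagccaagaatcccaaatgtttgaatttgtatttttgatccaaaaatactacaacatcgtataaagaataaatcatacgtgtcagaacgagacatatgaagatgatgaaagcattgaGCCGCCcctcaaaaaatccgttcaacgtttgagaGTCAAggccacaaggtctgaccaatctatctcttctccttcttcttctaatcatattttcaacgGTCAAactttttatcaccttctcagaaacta
STZ: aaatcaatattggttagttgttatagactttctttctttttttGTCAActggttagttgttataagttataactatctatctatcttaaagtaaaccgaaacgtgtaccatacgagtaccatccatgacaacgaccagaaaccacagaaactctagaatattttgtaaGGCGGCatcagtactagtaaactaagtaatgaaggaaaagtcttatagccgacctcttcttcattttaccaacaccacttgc
PDF1.2: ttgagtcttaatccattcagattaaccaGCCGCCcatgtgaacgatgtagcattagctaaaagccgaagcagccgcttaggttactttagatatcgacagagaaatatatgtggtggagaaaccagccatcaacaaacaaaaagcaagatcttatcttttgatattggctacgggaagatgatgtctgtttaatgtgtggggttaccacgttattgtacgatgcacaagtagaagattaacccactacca

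WRKY33 held 2 W-box cores and 1 GCC-box, STZ 1 of each and PDF1.2 1 GCC-box. Over all 18168 protein-coding genes compared that had a window, 45.1% held at least 1 W-box core, 1.94% a GCC-box and 7.19% a G-box. Among the 84 protein-coding genes higher in hda9, 49 held a W-box core (58.3%), 6 a GCC-box (7.14%) and 7 a G-box (8.33%). Among the 43 lower ones, 26 held a W-box core (60.5%), 2 a GCC-box (4.65%) and 3 a G-box (6.98%). Windows with a W-box core were therefore more frequent than in all genes on both sides of the comparison. A match to these letters describes the window and is not a measured binding site.

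Further genes with calcium or immune-receptor domains were among those called. These families were picked after the called genes were seen. Of 88 genes compared whose product names an EF-hand or calmodulin, 4 were higher and none lower, beside 0.545% and 0.381% of all rows. The EF-hand gene AT4G27280 was 149 FPKM in hda9 and 71.1 in pwr, against 31.1 for Col, 132 for hos15 and 33.5 for the double mutant (1.06). Of 71 genes with a Toll-interleukin receptor (TIR) domain, 3 were higher and none lower, beside the same shares of all rows. One of them, AT1G66090, was 10.6 FPKM in hda9 and 4.71 in pwr, beside 2.95 for Col, 9.84 for hos15 and 1.48 for the double mutant (1.02, and 0.98 after median-ratio scaling). Among 94 disease resistance (NLR) genes as a family, AT1G66090 was the only call and 84 were above 0 (61.7% of all rows were). Their median was 0.16, which became 0.08 after sequence adjustment. None of 16 salicylic acid and defence genes was called. Of the 16, 14 were above 0 (61.7% of all rows were), and the median was 0.29 (0.26 after sequence adjustment). PBP1, a calcium-binding protein that interacts with the PINOID kinase, was 39.5 FPKM in hda9 and 16.1 in pwr, with 7.56 for Col, 24.7 for hos15 and 12.1 for the double mutant (1.25).

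Among iron genes, FRO2 and CYP82C4 were called, each with hda9 above the other 4 columns. FRO2, the root ferric reductase, was 26.4 FPKM in hda9 and 11.5 in pwr, beside 10.8 for Col, 10.3 for hos15 and 11.1 for the double mutant, a difference of 1.13. CYP82C4, which makes the iron-mobilising coumarin sideretin, was 27.3 FPKM in hda9 and 9.56 in pwr, against 10.6 for Col, 7.99 for hos15 and 9.98 for the double mutant (1.42). In both genes the other 4 columns lay close together. IRT1, the main root iron transporter, was 144 FPKM in hda9 and 72.3 in pwr, with 51.8 for Col, 72.1 for hos15 and 60.7 for the double mutant, and was just short of the rule at 0.99 (1.06 after sequence adjustment, which passes it). CYP82C4 is not among the 20 iron, copper and superoxide genes of the list compared. Of these, FRO2 alone was called before adjustment (0.545% of all rows were called higher and 0.381% lower). Values were above 0 for 14 of the 20 (61.7% of all rows were), and the median was 0.16. The hda9 column was the highest of the 5 for 7 of the 20 (2844 of the 18912 rows). The double mutant was also the highest for 7 (2931 of the 18912 rows). FIT, the transcription factor that activates FRO2 and IRT1, was 10.8 FPKM in hda9, 6.07 in pwr and 11.3 in Col (0.74). The root markers as a whole had a median of 0.06, with 8 of 13 above 0 (61.7% of all rows were) and none called.

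In another group of called genes both mutants were below Col and pwr more so. IAA2, an early auxin-response repressor, was 28.2 FPKM in hda9 and 12.96 in pwr, against 63.7 for Col, 32.8 for hos15 and 21.9 for the double mutant (1.06, and 0.96 after sequence adjustment). It was the only call among 20 auxin genes, whose median was 0.07 (0.545% of all rows were called higher and 0.381% lower). MEE3, a small MYB-like protein, was 8.13 FPKM in hda9 and 2.63 in pwr, against 22.6 for Col, 6.19 for hos15 and 4.37 for the double mutant (1.33). The dehydrin gene AT1G54410 was 385 FPKM in hda9 and 184 in pwr, against 1512 for Col, 418 for hos15 and 506 for the double mutant (1.06, and 0.76 after sequence adjustment). In these 3 genes the mutants lay on 1 side of Col and differed in distance from it. CYP707A3, which breaks down abscisic acid, was 10.7 FPKM in hda9 and 4.66 in pwr, beside 5.36 for Col, 14.8 for hos15 and 2.80 for the double mutant (1.05). It was the only call among 19 abscisic acid and drought genes, beside the same shares of all rows. Of the 19, 11 were above 0 (61.7% of all rows were). CYP707A3 fell short of the rule after sequence adjustment at 0.99.

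By the 2-fold rule, without quantile normalization, genes lower in hda9 than in pwr were fewer. HEI10, a RING-finger protein needed for meiotic crossovers, had the widest gap among protein-coding genes with a symbol and values above 0 in both columns, at 1.56 FPKM in hda9 and 18.8 in pwr (-2.95). Col had 3.53, hos15 0.816 and the double mutant 4.86, so pwr stood apart from the other 4. HEI10 overlaps 1 annotated gene on its own strand and 2 on the other. None of the other 9 meiotic recombination genes compared was called. CLE7, a signalling peptide gene, was 0.445 FPKM in hda9 and 3.43 in pwr, against 2.29 for Col, 0.753 for hos15 and 2.57 for the double mutant (-1.62). RTFL1, a small ROTUNDIFOLIA-like peptide gene, was 1.08 and 4.12 FPKM, with 0.919 for Col, 2.21 for hos15 and 1.54 for the double mutant (-1.296).

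MT1B, a metallothionein that binds metals, was 22.1 FPKM in hda9 and 48.2 in pwr, with 53.0 for Col, 36.9 for hos15 and 71.3 for the double mutant (-1.09). GRP5, a glycine-rich protein, was 13.5 FPKM in hda9 and 29.1 in pwr, beside 23.9 for Col, 24.7 for hos15 and 23.0 for the double mutant (-1.05). In both genes hda9 was the lowest of the 5 columns. RGF5, a root meristem growth factor peptide gene, was 0.519 and 2.09 FPKM (-1.02, and -0.88 after sequence adjustment). ICL, the isocitrate lyase of the glyoxylate cycle, was short of the rule at 11.6 FPKM in hda9 and 21.3 in pwr (-0.82), and none of the 10 genes of its list was called.

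No photosynthesis gene of the lists was called. All 14 green shoot markers had values below 0, from -0.40 to -0.02, while 61.7% of all rows were above 0. Their summed level was 82723 FPKM in hda9 and 95101 in pwr, beside 64235 for Col, 76315 for hos15 and 85252 for the double mutant. Their median of -0.18 became -0.05 after sequence adjustment. Chlorophyll a/b-binding proteins had a median of -0.17 over 27 genes (-0.04 after sequence adjustment). Expansins, which loosen cell walls, had one of -0.31 over 21 genes (-0.18 after adjustment), and none was called in either. In whole seedlings fewer cells of a type and less RNA per cell cannot be told apart. Of 10 seed remnant markers 2 passed the filter, OLEO4 at 1.96 and 1.71 FPKM and PER1 at 1.14 and 0.945. Of 8 flower markers 4 passed the filter, all 4 above 0 (61.7% of all rows were), with a median of 0.48. TAP35 alone was called (0.545% of all rows were called higher). AP3, AG and SEP1 were under 1 FPKM in all 5 columns, and SEP3 was 3.69 FPKM in hda9 and 2.83 in pwr. TAP35 was 2.16 FPKM in hda9 and 0.216 in pwr (1.38).

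Lists on which no gene was called included the circadian clock (16 genes, median 0.05), flowering time (20 genes, 0.02), glucosinolate synthesis (20 genes, 0.07) and flavonoid synthesis (11 genes, 0.22). In the glucosinolate list MYB51, an activator of indole glucosinolates, was just short of the rule at 26.5 FPKM in hda9 and 12.9 in pwr (0.98). In the cold response list STZ was the only call (0.545% of all rows were called higher and 0.381% lower). Of its 13 genes 8 were below 0, with a median of -0.14, while 61.7% of all rows were above 0. KIN2, a cold-regulated gene, was 1397 FPKM in hda9 and 1931 in pwr (-0.47). 

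**Figure D3:**
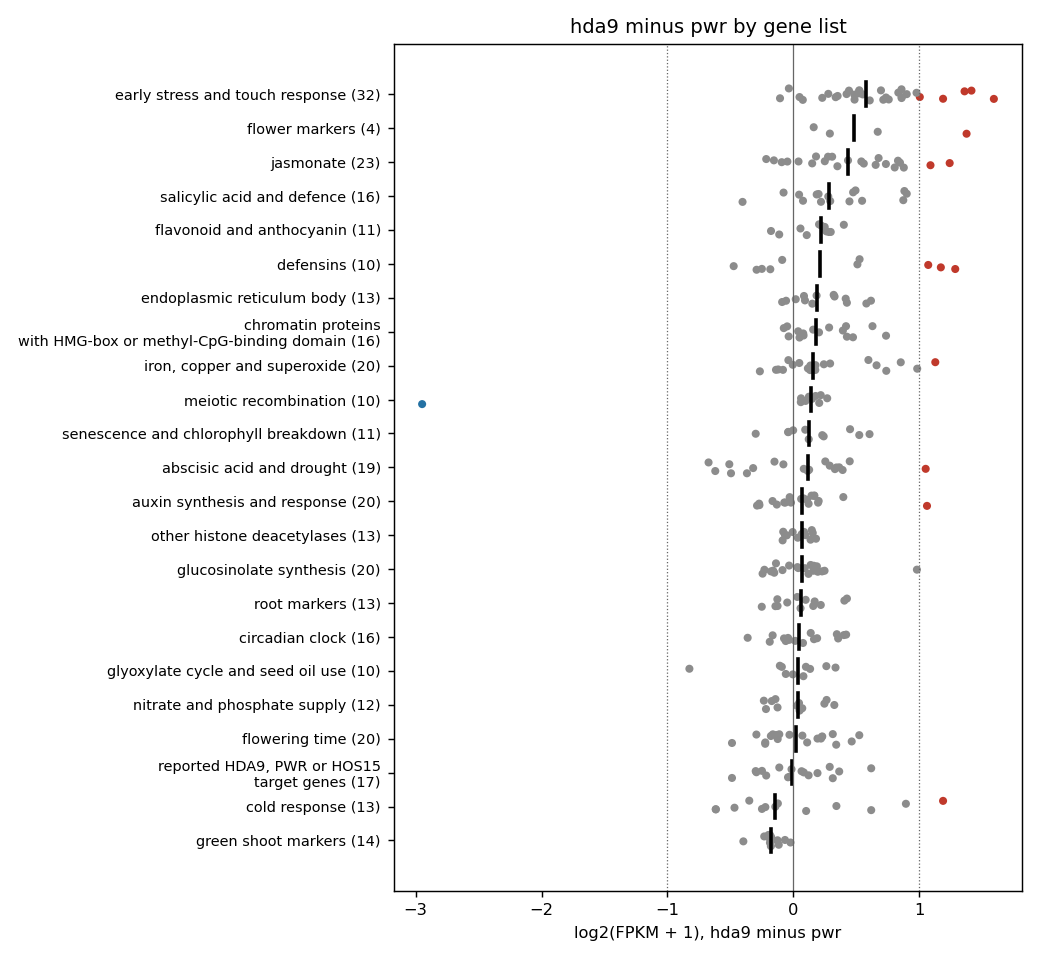
Each point is 1 gene, with hda9 minus pwr in log2(FPKM + 1) on the x axis, red at 1 or more and blue at -1 or less; black ticks are medians and the number compared is in brackets. The early stress and jasmonate lists sit right of 0 with medians of 0.58 and 0.44, and all 14 green shoot markers sit left of it. Of all rows compared, 61.7% were above 0.

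MicroRNA precursors went both ways. Of 27 precursor rows compared, 6 were called higher (22.2%) and 5 lower (18.5%), beside 0.545% and 0.381% of all rows. Among all rows under 300 nt, 16.7% were called higher and 22.4% lower. The mature sequences of 6 of the called precursors with values above 0 in both columns are shown because they tell which family each row belongs to, with the seed (bases 2 to 8) in capitals. Apart from MIR775 and MIR166a they were chosen after their values were seen. They were read from RefSeq TAIR10.1, with miR775 at chr1:29422546-29422565, plus strand, miR166a-3p at chr2:19176241-19176261, plus strand, miR168a-5p at chr4:10578652-10578672, plus strand, miR394b-5p at chr1:28568821-28568840, plus strand, miR157a-5p at chr1:24913276-24913296, minus strand and miR157c-5p at chr3:6244673-6244693, minus strand. The mRNA libraries measure precursors, not the mature forms.
miR775: uUCGAUGUcuagcagugcca
miR166a-3p: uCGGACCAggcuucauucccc
miR168a-5p: uCGCUUGGugcaggucgggaa
miR394b-5p: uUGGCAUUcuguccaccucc
miR157a-5p: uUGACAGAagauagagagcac
miR157c-5p: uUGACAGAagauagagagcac

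The first 3 were higher in hda9 and the last 3 lower. MIR775 was 78.0 FPKM in hda9 and 7.76 in pwr, against 38.3 for Col, 26.9 for hos15 and 21.9 for the double mutant (3.17), so hda9 was above and pwr below every other column. MIR166a was 17.6 FPKM in hda9 and 5.16 in pwr, beside 3.78 for Col, a listed 0 for hos15 and 5.12 for the double mutant (1.60). MIR168a was 29.6 FPKM in hda9 and 13.2 in pwr, with 23.6 for Col, 40.3 for hos15 and 25.7 for the double mutant (1.105). Rows this short had 0 in some columns and not in others.

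MIR157a and MIR157c share the mature sequence and seed printed above, and both were lower in hda9. MIR157a was 17.2 FPKM in hda9 and 45.5 in pwr, against 65.2 for Col, 36.5 for hos15 and 58.8 for the double mutant (-1.35). MIR157c was 4.03 FPKM in hda9 and 9.15 in pwr, against 24.7 for Col, 11.6 for hos15 and 12.2 for the double mutant (-1.01). In both precursors hda9 was the lowest of the 5 columns and Col the highest. MIR394b was 14.5 and 44.0 FPKM and listed at 0 in the other 3 columns (-1.54).

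Known targets of these families, in lists added after the precursors were seen, differed little. Of the SPL genes targeted by miR156 and miR157, which promote the adult phase, 5 were compared and none was called, with a median of -0.10. The 5 HD-ZIP III genes targeted by miR166, which pattern the upper leaf side and vasculature, had a median of -0.16. AGO1, the miR168 target that carries microRNAs, was 64.3 FPKM in hda9 and 69.3 in pwr (-0.11). LCR, the F-box target of miR394, was 34.95 and 37.5 FPKM (-0.10).

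The most abundant called row was AT2G01021, annotated as an uncharacterized protein. It was 48096 FPKM in hda9 and 183880 in pwr, against 39477 for Col, 80532 for hos15 and 53990 for the double mutant (-1.93). It took 4.17% of the FPKM sum in hda9 and 13.9% in pwr. The ribosomal RNA row AT3G41768 (18S) moved with it, at 176 FPKM in hda9 and 606 in pwr, beside 183 for Col, 305 for hos15 and 145 for the double mutant (-1.78). The sequence of AT2G01021 is shown because it occurs at 2 places of the nuclear genome of TAIR10.1, chr2:6571-6672 and chr3:14200542-14200643, both on the plus strand and each starting 626 bases after the end of the nearest upstream rRNA gene.
AT2G01021: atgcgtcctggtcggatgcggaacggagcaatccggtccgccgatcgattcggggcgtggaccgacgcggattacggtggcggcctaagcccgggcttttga

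Both rows were highest in pwr, followed by hos15. Their part in the values of other rows was not tested beyond leaving out short rows. Without rows under 300 nt, AT2G01021 included, and with columns rescaled, 86 rows were higher and 30 lower.

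Set against wild type, the called rows differed in which mutant stood apart. Of the 103 higher rows, 52 were at least 2-fold above Col in hda9 (1.99% of all rows were) and 30 at least 2-fold below Col in pwr (7.55% of all rows), while in 26 neither mutant was 2-fold from Col. Of the 72 lower rows, 33 were 2-fold below Col in hda9 (4.49% of all rows) and 28 were 2-fold above Col in pwr (1.94% of all rows), and in 13 neither was. Only 7 rows were past 2-fold from Col in opposite directions, 5 of them higher in hda9. The rows were picked for a gap between the hda9 and pwr columns, so shares above those of all rows follow in part from the rule itself. Since the Col column is shared, a low or high Col value moves both distances at once. The hos15 column lay nearer hda9 than pwr for 57 of the 103 higher and 30 of the 72 lower rows, beside 67.2% of all rows. The double mutant lay nearer hda9 for 34 of the 103 and 42 of the 72, beside 50.9% of all rows.

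The double mutant and hos15 share no column with hda9 against pwr, and they differ in the hda9 insertion. Genes that stood higher in hda9 than in pwr were mostly lower in the double mutant than in hos15, as were most genes compared. Of the 63 genes higher in hda9, protein-coding, of at least 300 nt and above 0 in both columns, 49 were lower in the double mutant than in hos15 (77.8%, beside 58.2% of the 18058 such genes). By the 2-fold rule 19 of the 63 were lower in the double mutant (30.2%, beside 0.748%) and 2 were higher, and the median was -0.56. Over all 103 higher rows, 65 were below hos15 in the double mutant (63.1%, beside 58% of all rows, of which 41.8% were above). Of the 103, 24 were at least 2-fold below (23.3%, beside 0.994% of all rows) and 14 at least 2-fold above (0.296% of all rows). Of the 72 lower rows, 41 were below hos15 (56.9%), 19 by at least 2-fold (26.4%), and 8 were at least 2-fold above. Over all called rows, 2-fold falls were thus about as frequent among lower as among higher rows.

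All 32 early stress and touch genes were lower in the double mutant than in hos15, 14 of them by at least 2-fold, with a median of -0.91. Over all rows 58% were lower, 0.994% by at least 2-fold, and the median was -0.04. As the list was drawn up with earlier results of these data known, this too is a description. TCH4 was 314 FPKM in hos15 and 57.0 in the double mutant (-2.44), and WRKY40 16.2 and 2.83 (-2.16). Of the 23 jasmonate genes, 16 were lower, with a median of -0.39. FRO2 and CYP82C4 differed by 0.09 and 0.29. Of the 16 lower genes of the same class as the 63, 11 were below hos15 in the double mutant (68.8%, beside 58.2% of all such genes). HDA9 itself was the only 1 at least 2-fold below, and 2 were at least 2-fold above, HEI10 at 1.69 and CLE7 at 1.03.

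**Figure D4:**
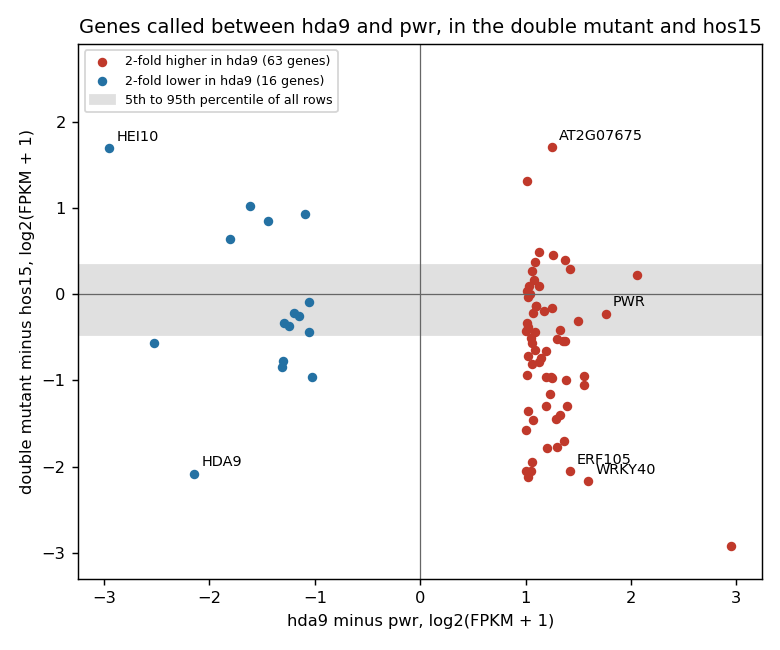
Points are the 63 higher and 16 lower protein-coding genes of at least 300 nt with values above 0 in both columns; the x axis is hda9 minus pwr and the y axis is double mutant minus hos15, in log2(FPKM + 1). Of the 63 higher genes 49 lie below 0 on the y axis, as do 11 of the 16 lower genes. The grey band, from -0.48 to 0.34, holds the middle 90% of all rows.

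The difference also moved with transcript composition. Over 18079 protein-coding genes of at least 300 nt, Spearman's rho of hda9 minus pwr with the percentage of purines (A and G) in the transcript was 0.35, with GC percentage -0.14 and with length 0.07. These are descriptions across genes of the same columns. The median difference was -0.08 for the 1237 genes with at most 46% purines and 0.33 for the 232 genes above 58%. Against Col the medians of those 232 genes were -1.14 in hda9 and -1.51 in pwr, so both mutants were lower and pwr further. Purine, GC and length together accounted for 12.3% of the variance. The genes called higher had a median of 50.3% purines and those called lower 48.6%, beside 50.6% for all.

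Taking the residual from a spline fit on purine, GC and length as the difference called 69 genes higher (0.382%) and 26 lower (0.144%). Of the 70 genes of this class called higher without adjustment 57 were still called, and of the 25 called lower 23 were. WRKY40 kept 1.54, ERF105 1.41, STZ 1.32, JAZ1 1.17 and FRO2 1.19, while WRKY18, IAA2, CYP707A3, RGF5 and AT1G54410 fell short of the rule. The median of the early stress list was 0.62 after adjustment. HOS15 moved from 0.37 to 0.15.

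**Figure D5:**
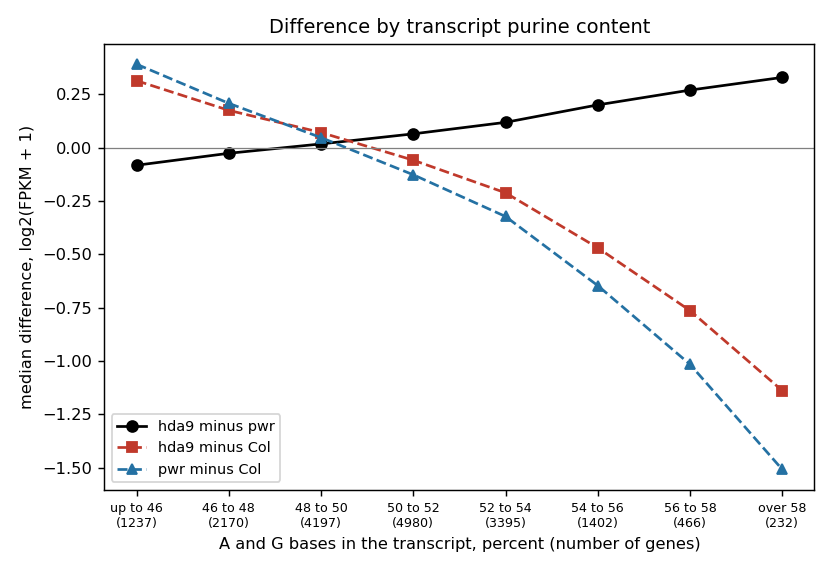
Genes are grouped by purine percentage of the transcript (x axis, number of genes in brackets), and the y axis gives the median difference in log2(FPKM + 1). The hda9 minus pwr median runs from -0.08 in the lowest group to 0.33 in the highest, while both mutants minus Col run from above 0 to below -1.

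At the edge of the rule, HSPRO2, a relative of a sugar beet nematode-resistance gene, lay just inside at 1.001 with 39.9 FPKM in hda9 and 19.4 in pwr, and AT5G19240 just outside at 0.998 with 140 and 69.7. On the lower side MIR157c and RGF5 lay just inside, and CLE21, a signalling peptide gene at 1.01 and 2.91 FPKM (-0.96), just outside.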

How the data were processed

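Libraries were made with the TruSeq stranded mRNA kit, per the labels' protocols. The authors aligned and quantified them with TopHat2, Cufflinks and Cuffdiff on TAIR10, per the submitters' processing notes; versions, settings and use of the strand are not stated there. The deposited FPKM table has 1 value per gene and genotype, and how the 2 libraries were combined is not given. Its wild-type column is labelled WT, names no libraries and was read as Col. Depth is unknown, so no counting interval was made.

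Values were compared as log2(FPKM + 1) where 2 or more of the 5 genotypes reached 1 FPKM, with a 2-fold rule and no test. Members and gene lists (25 lists of 409 distinct loci, 336 of them compared, and 16 families by product name) were chosen with earlier results of these data known. Named genes were the 3 targeted genes, the 15 largest differences each way among protein-coding genes with a symbol, at least 2 FPKM in the higher genotype and above 0 in both, 4 other rows each way, rows 2-fold from Col on opposite sides, and up to 4 per list; other genes named within a list's account were chosen after their values were seen. The sequence adjustment is the residual from cubic splines with 5 knots of purine percentage, GC percentage and log2 length. Annotation and sequences came from RefSeq TAIR10.1, matched by locus code for 18659 of the 18912 rows; 212 rows join several loci. Software was Python 3.11.15, pandas 2.3.3, numpy 2.4.6, scikit-learn 1.9.0 and matplotlib 3.10.9. The calling was tested on simulated data with changes larger than the 2-fold rule. These were planted in protein-coding genes of at least 300 nt with a mean FPKM of at least 5. Short rows, weakly expressed genes and changes near the rule were therefore not covered. Alternatives were the pseudocount, filter, scaling, short rows, sequence adjustment, size rule and gene class.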

Additional observations from a re-analysis of the deposited data

Results flagged for a closer look

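In 7 rows hda9 and pwr were each at least 2-fold from Col, in opposite directions. This difference was not tested, since each genotype has 1 value. Only AT3G19663 (490 nt, uncharacterized) is a protein-coding gene of at least 300 nt with values above 0 in both columns. It was 1.00 above Col in hda9 and -1.95 in pwr on the log2 scale, at 23.1 FPKM in hda9, 2.12 in pwr, 11.05 in Col, 6.59 in hos15 and a listed 0 in the double mutant. MIR775 was 1.01 in hda9 and -2.16 in pwr against Col.

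The other rows have a listed 0 in hda9 or pwr, and no ratio of FPKM values is given for them. In the column with the 0, the log2(FPKM + 1) difference from Col rests on that 0, which may be a failed estimate. MIR164b was 1.05 in hda9 and -2.01 in pwr against Col on the log2(FPKM + 1) scale, with a listed 0 in pwr. AT2G11271, an uncharacterized protein, was 1.404 and -2.53, and the tRNA gene AT1G15090 was 2.58 and -6.09, both also listed at 0 in pwr. On the other side, listed at 0 in hda9, AT3G62528 was -1.58 in hda9 and 1.59 in pwr, and the small nucleolar RNA gene AT3G47348 was -4.98 and 3.10.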

How the results depend on the processing

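No paired analysis was possible because the table holds 1 value per genotype, and leaving out single libraries could not be run for the same reason. The counts of 103 higher and 72 lower rows became 268 and 122 with a pseudocount of 0.1, 158 higher with 0.5, and 64 and 42 with a mean FPKM of at least 5. They were 564 and 186 at 1.5-fold and 25 and 38 at 3-fold. Lower calls were 30 without rows under 300 nt, 26 after sequence adjustment (on 18079 genes, for which 25 were lower before it) and 43 among protein-coding genes. Under median-ratio scaling, which brought the median of all rows to 0.01, there were 89 higher and 75 lower rows, and under no filter 129 and 100. Of the higher rows, the number below hos15 in the double mutant was 174 of 268 with a pseudocount of 0.1 in place of 65 of 103, and 55 of 89 under median-ratio scaling. Of 764 alternative values for 104 named genes, 733 stayed on their side of the rule, 11 fell short of it, 20 newly passed it and 0 changed direction. Part of this was fixed in advance. The values under no filter (104) and under a mean FPKM of at least 5 (72) equal the main ones, and a pseudocount cannot change a direction. Depth is unknown, so differences between weakly expressed genes carry an unknown counting error.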

Other observations

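Of 22 kinesin genes, motor proteins that include those of cell division, 20 were above 0 (61.7% of all rows were) and none was called, with a median of 0.29 that became 0.15 after sequence adjustment. Their summed level was 124 FPKM in hda9 and 104 in pwr, against 241 for Col, 145 for hos15 and 134 for the double mutant. Of 51 heat shock protein genes 36 were above 0 and none was called (1 after adjustment), with a median of 0.17 (0.10 after adjustment). Cytosolic and organelle ribosomal proteins had a median of -0.02 over 313 genes, with AT2G07675 as the only call (0.545% of all rows were called higher). A median of 0.03 with no call was found for 177 pentatricopeptide repeat genes.

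Of 29 small nucleolar RNA rows compared, 4 were called higher in hda9 (13.8%) and 10 lower (34.5%), beside 0.545% and 0.381% of all rows and 16.7% and 22.4% of rows under 300 nt. AT1G75166 was 200 FPKM in hda9 and 59.7 in pwr, beside 58.8 for Col, 73.4 for hos15 and 259 for the double mutant. AT3G47347 was 72.9 FPKM in hda9 and 224 in pwr, beside 195 for Col, 76.4 for hos15 and a listed 0 for the double mutant.

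Among rows without a symbol, AT5G66607, an uncharacterized protein gene of 326 nt, was 18.8 FPKM in hda9 and 113 in pwr, against 20.7 for Col, 74.5 for hos15 and 49.9 for the double mutant (-2.53). It was chosen after its values were seen.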
